A study of Mus musculus with 18 samples.

Results

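The genes described here are 40 genes of the unfolded protein response and the amino acid response, taken from a list of names: chaperones and folding enzymes of the endoplasmic reticulum (ER), components of ER-associated degradation, the sensors of unfolded protein, the transcriptional regulators of the stress response, and genes that make, import or charge amino acids. Each was read through a probe set whose only symbol was that gene, and 39 of the 40 had one. The probe set of Pdia4, a protein disulfide isomerase, also carried a microRNA's symbol and was left out. All 39 passed the filter on dim genes, which kept 19016 of 22180 genes and asked that 3 or more arrays read the gene above their own 25th percentile. No measured value was used to choose them, but the list was drawn up with earlier results of these data known.

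The study cultured mouse neurospheres, floating clusters of neural stem and progenitor cells, and measured total RNA on 18 Affymetrix arrays. The groups were wild type cells, cells with Pcdh19 knocked out, and a mosaic mixture of both genotypes, each at day 0, as neurospheres, and at day 4 of differentiation, with 3 arrays a group. All samples were labelled female, the sources used here do not give how Pcdh19 was disrupted or the proportions of the mixture, and the labels name no drug or stressor. The replicates are called technical and nothing ties them to separate animals or cultures, so that the p-values measure only the spread between these samples, which may be technical.

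Protein that enters the ER is folded by chaperones, and 3 membrane proteins watch for a surplus of unfolded chains. ATF6 is cut to release a transcription factor, IRE1 (Ern1) splices the messenger of the transcription factor XBP1, and PERK (Eif2ak3) phosphorylates eIF2alpha, which slows translation in general and favours translation of ATF4. Other kinases that sense a shortage of amino acids act on the same eIF2alpha, and ATF4 then raises genes for amino acid synthesis, uptake and tRNA charging. Much of this control lies in protein processing, splicing and translation, which an array of RNA levels does not measure.

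The promoters show which of these genes carry the short elements that ATF6, XBP1 and ATF4 are known to bind, and the members shown are those whose RNA is followed below. Windows from 250 bases before to 50 bases after each gene's start site were taken from RefSeq on mouse assembly GRCm38.p6, and 36 of the 40 genes had one. Both strands were searched for the ER stress element (ERSE, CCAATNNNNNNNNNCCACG), its variant ERSE-II (ATTGGNCCACG), an XBP1 site (TGACGTGG) and a composite element of ATF4 and C/EBP factors (CARE, TGATGCAA). The ERSE and ERSE-II both end in CCACG and could overlap, but no member held both. Capitals mark the matches, which lie on either strand, and every sequence reads 5′ to 3′ along the gene's strand, all of it upstream of the start site.
Hspa5: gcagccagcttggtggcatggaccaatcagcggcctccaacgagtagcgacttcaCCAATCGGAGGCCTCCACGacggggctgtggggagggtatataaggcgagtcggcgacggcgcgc
Hsp90b1: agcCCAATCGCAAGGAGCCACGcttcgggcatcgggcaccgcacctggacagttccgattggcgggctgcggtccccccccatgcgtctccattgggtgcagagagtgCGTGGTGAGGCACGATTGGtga
Calr: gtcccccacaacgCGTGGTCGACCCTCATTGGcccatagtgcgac
Dnajc3: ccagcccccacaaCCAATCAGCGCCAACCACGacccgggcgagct
Syvn1: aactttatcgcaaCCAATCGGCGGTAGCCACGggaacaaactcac
Herpud1: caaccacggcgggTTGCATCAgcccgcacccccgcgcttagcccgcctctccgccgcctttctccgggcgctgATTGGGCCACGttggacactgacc
Chac1: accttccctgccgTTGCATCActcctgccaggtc
Nupr1: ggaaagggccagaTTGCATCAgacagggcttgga
Slc7a11: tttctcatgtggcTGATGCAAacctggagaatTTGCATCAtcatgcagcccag
In the same order, these stretches are chr2:34771970-34772089 (plus strand), chr10:86705530-86705659 (minus strand), chr8:84847062-84847106 (minus strand), chr14:118937814-118937858 (plus strand), chr19:6046519-6046563 (plus strand), chr8:94386304-94386400 (plus strand), chr2:119351036-119351069 (plus strand), chr7:126625560-126625593 (minus strand), and chr3:50443640-50443692 (minus strand) of GRCm38.p6.

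Members are counted here as genes and the totals as windows, of which a gene could have several. ERSE stood in a window of 8 of the 36 members (22.2%), namely Hspa5, Hsp90b1, Calr, Canx, Pdia6, Dnajc3, Creld2 and Syvn1, and in 39 of 32851 windows in all (0.119%). Hsp90b1 held a pair of them. ERSE-II was found in Herpud1, shown above beside a CARE, and in Dnajb11, where it lay after the start site, against 12 windows in all (0.0365%). CARE was found in 4 members (11.1%), Herpud1, Chac1, Nupr1 and Slc7a11, and in 294 windows in all (0.895%). The XBP1 site was found in 0 members and in 222 of all windows (0.676%). A match describes the exact letters given above in this window alone, and other forms of an element were not searched for. Manf, Slc7a5, Atf6 and Hyou1 are named here without a window.

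Within a group, any pair of arrays correlated at r = 0.9807 to 0.9863 over all 41345 probe sets. Pcdh19 read 6.66 to 6.98 on the log2 scale over the wild type arrays of both days and 5.39 to 5.86 over the knockout arrays, with the mosaic arrays between 5.65 and 6.31 at day 0 and between 5.52 and 7.09 at day 4. The groups labelled wild type and knockout thus did not overlap, although limma's adjusted p was 0.855 at day 0 and 0.195 at day 4, and whether the probe set lies in the disrupted stretch is not given in the sources used here. Summed levels (2 to the power of the deposited value) of 10 neural stem cell markers were 23610 to 25270 at day 0 and 19150 to 22090 at day 4. These markers did not move alike. In wild type the mean log2 level of Nes went from 8.50 to 6.92 and that of Hes5 from 10.82 to 8.91. Slc1a3 rose there from 11.40 to 11.84 and Prom1 from 6.79 to 7.27, while Fabp7, the highest of the list, stayed at 13.26. The summed levels of 7 oligodendrocyte markers were 513.3 to 728.4 at day 0 and 4535 to 7158 at day 4, and those of 5 cell cycle genes went from 2312 to 2739 down to 338.1 to 872.3. All 7 oligodendrocyte markers and 5 of 7 astrocyte and 6 of 8 neuron markers rose in every genotype, while the astrocyte markers Gfap and Aldh1l1 fell, by 1.68 and 0.59 in wild type, and all 5 cell cycle genes fell. The sum of 6 oligodendrocyte progenitor markers went from 7163 to 7981 up to 10870 to 12640, although Cspg4 among them fell, from a mean of 6.90 to 6.57 in wild type. The sum of 5 mesenchymal markers went from 131.7 to 158.7 up to 270.6 to 318.9, with Pdgfrb, the only one called, at a log2 fold change of 2.06 in wild type. The 7 microglia and 5 endothelial markers stayed low, with sums of 165.5 to 215.5 and 115.6 to 146.7. In such bulk samples, fewer cells of a type and less RNA per cell cannot be told apart, and the part of this change in cell makeup in the results below was not tested.

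Over 4 days of differentiation most of the genes fell in all 3 genotypes. In wild type cells 31 of 39 were lower at day 4 and 0 were higher, in knockout cells 28 were lower and 1 higher, and in mosaic cultures 26 were lower and 1 higher. Calls are limma's at an adjusted p under 0.05, with Benjamini-Hochberg adjustment over all 19016 genes. Of all genes tested, 16.3% were called lower and 17.2% higher in wild type, 12.4% and 15% in knockout, and 11.9% and 14.4% in mosaic cultures, so that the members' shares of 79.5%, 71.8% and 66.7% lower lay above the background. The median log2 fold change of the members was -0.63 in wild type, -0.62 in knockout cells and -0.47 in the mosaic, while the median of all genes was 0.09, 0.02 and 0.02. After quantile normalization of the arrays 61.5% of wild type calls over all genes were of higher genes, against 51.4% as reported here, and the member counts were then 30 lower and 1 higher. With the arrays set to a common median that share was 44.7%, and the member counts were 32 lower and 0 higher. The 3 comparisons rest on different arrays and share the estimate of the spread. The mosaic mixed cells of the wild type and knockout genotypes, so the 3 are not taken as independent.

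Of the 39 genes, 24 fell in all 3 genotypes, 4 in 2 of them (Canx, Dnajc3, Hyou1 and Chac1), 5 in 1 (Sel1l, Eif2ak3 and Cebpb in wild type, Atf4 in knockout, Phgdh in mosaic cultures) and 6 in 0 (Dnajb11, Sdf2l1, Edem1, Syvn1, Ern1 and Slc7a11). The share of all genes that fell in all 3 genotypes was not counted, but it cannot exceed the 11.9% called lower in the mosaic. A fall of at least 2-fold was found for 12 members in wild type, 12 in knockout cells and 11 in the mosaic, against 2.79%, 2.47% and 2.35% of all genes. Calls of 26 of the 31 genes in wild type, 23 of the 28 in knockout and 21 of the 26 in mosaic cultures held under all 26 alternative settings at the same threshold.

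**Figure D1:**
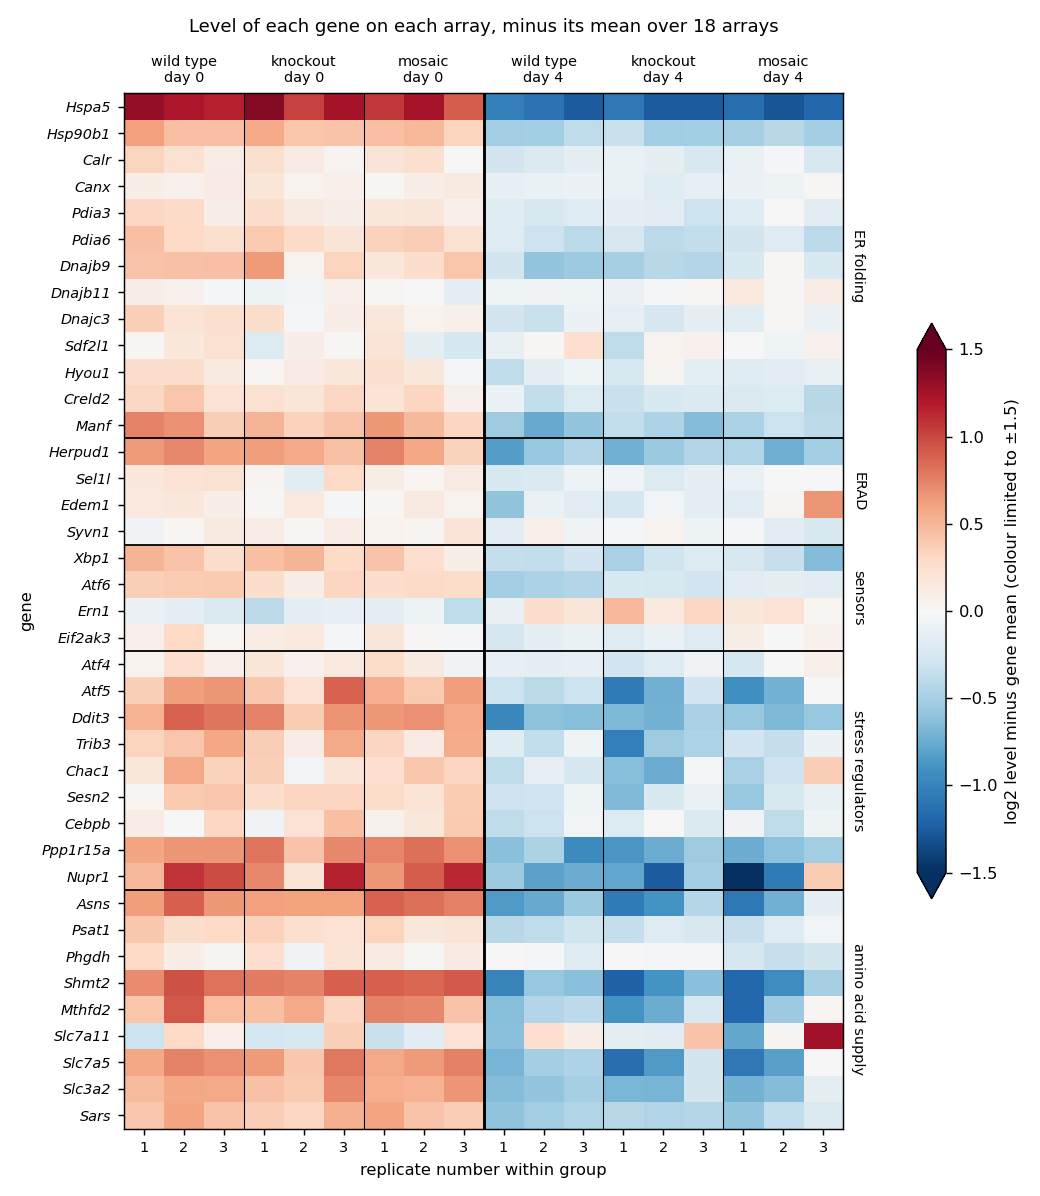
Level of each of the 39 genes (rows, by role) on each of the 18 arrays (columns, by group and replicate number), as the log2 level minus the gene's mean over all arrays, with red above and blue below that mean and colour limited to ±1.5. The day 0 arrays on the left are mostly red and the day 4 arrays on the right mostly blue, with Hspa5 the strongest row and the third mosaic array at day 4 paler in the lower rows.

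The heat map of all 39 genes shows the same split on single arrays. Hspa5, Hsp90b1, Manf, Herpud1, Xbp1, Ddit3 and Shmt2, among others, are above their mean on every day 0 array and below it on every day 4 array. How many of all genes split in this way was not counted. Slc7a11, Sdf2l1, Dnajb11, Edem1, Syvn1 and Ern1 are among those that show no such split.

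Of the 13 ER chaperones and folding enzymes, 11 fell in wild type, 10 in knockout cells and 9 in the mosaic, with median log2 fold changes of -0.50, -0.37 and -0.28. Hspa5, which encodes BiP, an abundant ER chaperone and the protein that holds the sensors inactive, had the largest fall of any member in each genotype. In wild type neurospheres its log2 levels were 10.33, 10.23 and 10.18, and after differentiation 7.99, 7.92 and 7.77. Knockout cells had 10.40, 10.05 and 10.27 at day 0 and 7.95, 7.78 and 7.77 at day 4. Mosaic cultures had 10.09, 10.25 and 9.93 at day 0 and 7.89, 7.74 and 7.84 at day 4. Every day 0 array lay far above every day 4 array, and the genotypes overlapped at both days. The fall was 5.12-fold in wild type (log2 fold change -2.36 ± 0.11 SE, limma adjusted p = 3.12e-10), 5.30-fold in knockout (-2.40, adjusted p = 2.68e-10) and 4.82-fold in mosaic cultures (-2.27, adjusted p = 4.05e-10). Counted from the most lowered of all 19016 genes, Hspa5 ranked 68 in wild type, 61 in knockout cells and 53 in the mosaic. Its promoter is the first sequence shown above, with an ERSE.

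Manf encodes a small secreted protein of the ER that is induced by ER stress and supports cell survival. Wild type arrays read 7.80, 7.75 and 7.42 at day 0 and 6.53, 6.30 and 6.46 at day 4. The knockout values were 7.56, 7.40 and 7.49, then 6.69, 6.60 and 6.41, and the mosaic values 7.71, 7.55 and 7.38, then 6.58, 6.73 and 6.66. No day 4 array reached the lowest day 0 array in any genotype. By limma Manf fell by 1.23 ± 0.11 (SE) log2 units in wild type (adjusted p = 6.71e-07), 0.92 in knockout (adjusted p = 1.3e-05) and 0.89 in mosaic cultures (adjusted p = 1.77e-05).

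Hsp90b1 encodes GRP94, the ER member of the HSP90 chaperone family. Its log2 level in wild type was 11.91, 11.75 and 11.75 at day 0 and 10.77, 10.79 and 10.92 at day 4. Knockout cells gave 11.86, 11.72 and 11.72, then 10.96, 10.78 and 10.79, and mosaic cultures 11.74, 11.79 and 11.64, then 10.80, 10.88 and 10.78. The arrays of a day lay close together and the days were fully apart. The log2 fold changes were -0.97 ± 0.08 (SE), -0.92 and -0.90, in the order above, with limma adjusted p-values of 2.86e-07, 4.77e-07 and 6.33e-07.

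The other folding genes changed less. Dnajb9, a co-chaperone that restrains IRE1, had log2 fold changes of -0.91 in wild type, -0.79 in knockout and -0.42 in the mosaic, all called. In the mosaic its call was lost when the first or the third day 4 array, or the third day 0 array, was left out. Pdia6, a disulfide isomerase, fell by 0.63, 0.62 and 0.60, and Creld2, a secreted ER stress protein, by 0.54, 0.50 and 0.48. The lectin chaperone Calr fell by 0.44, 0.30 and 0.26 and the disulfide isomerase Pdia3 by 0.43, 0.37 and 0.25. The mosaic calls of Calr, Pdia3 and of Hyou1, a large HSP70-like chaperone (-0.42, -0.22 and -0.28), were lost in many of the settings tried. Dnajc3, an ER co-chaperone, had -0.50, -0.29 and -0.18, and Canx, the membrane lectin partner of calreticulin, -0.20, -0.24 and -0.14, in both of which the mosaic value did not pass. Dnajb11 (-0.11, -0.02 and 0.13) and Sdf2l1 (-0.09, -0.06 and 0.07), which form part of the BiP machinery, passed in no genotype.

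Among the 4 genes of ER-associated degradation, which sends misfolded protein to the proteasome, 2 fell in wild type, 1 in knockout cells and 1 in the mosaic. Herpud1, which organises the degradation complex, read 9.28, 9.38 and 9.24 in wild type neurospheres and 7.83, 8.08 and 8.22 at day 4. In knockout cells the values were 9.28, 9.21 and 9.09, then 7.93, 8.09 and 8.21, and in mosaic cultures 9.39, 9.23 and 9.0, then 8.21, 7.92 and 8.14. Every day 4 array lay below every day 0 array. The falls were 2.39-fold (log2 fold change -1.26 ± 0.12 SE, limma adjusted p = 9.03e-07), 2.18-fold (-1.12, adjusted p = 2.93e-06) and 2.17-fold (-1.12, adjusted p = 2.84e-06).

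Sel1l, the scaffold of the HRD1 ubiquitin ligase, moved far less. Its values were 9.76, 9.82 and 9.83 in wild type at day 0 and 9.38, 9.39 and 9.54 at day 4. The knockout arrays read 9.64, 9.43 and 9.90, then 9.56, 9.40 and 9.48, and the mosaic arrays 9.69, 9.63 and 9.74, then 9.51, 9.61 and 9.62. The days overlapped in knockout alone, where 1 day 0 array read nearly as low as the lowest day 4 array. By limma Sel1l fell by 0.37 ± 0.10 (SE) in wild type (adjusted p = 0.00842), and the values of -0.18 in knockout (adjusted p = 0.212) and -0.11 in mosaic cultures (adjusted p = 0.495) did not pass. Without that low knockout array, replicate 2 of day 0, the knockout value was -0.29 with an adjusted p of 0.0361, and without replicate 3 of that group, its highest array, it was -0.06. Edem1, a mannosidase-like protein that picks out misfolded glycoproteins, had -0.43, -0.19 and 0.10, and Syvn1, the HRD1 ligase itself, -0.08, -0.10 and -0.24, with no call in any genotype. A dimmer probe set of Edem1 gave 0.10, -0.03 and 0.26.

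Of the sensors and XBP1, 3 of 4 fell in wild type, while 2 fell and 1 rose in both knockout and mosaic cultures. Xbp1 encodes the transcription factor that IRE1 activates by splicing, and the array values do not separate its spliced and unspliced forms. It read 8.62, 8.54 and 8.38 at day 0 and 7.75, 7.74 and 7.82 at day 4 in wild type. Knockout cells had 8.56, 8.62 and 8.41, then 7.62, 7.81 and 7.91, and mosaic cultures 8.54, 8.36 and 8.20, then 7.87, 7.76 and 7.46. The days did not overlap in any genotype, and the mosaic arrays were the most spread. The log2 fold changes were -0.74 ± 0.12 (SE), -0.75 and -0.67, with limma adjusted p-values of 0.000134, 0.000131 and 0.000345.

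Atf6, the sensor that is itself a transcription factor, read 8.35, 8.37 and 8.38 at day 0 and 7.48, 7.51 and 7.54 at day 4 in wild type. In knockout cells it read 8.26, 8.08 and 8.31, then 7.76, 7.74 and 7.70. Mosaic cultures had 8.25, 8.27 and 8.27, then 7.83, 7.85 and 7.83. At day 4 the 3 wild type arrays were the lowest, the 3 knockout arrays lay above them and the 3 mosaic arrays above those, with no overlap. By limma Atf6 fell by 0.85 ± 0.07 (SE) in wild type (adjusted p = 1.97e-07), 0.48 in knockout (adjusted p = 7.55e-05) and 0.43 in mosaic cultures (adjusted p = 0.000226).

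Ern1, which encodes IRE1alpha, was the exception in direction. Wild type arrays read 6.22, 6.18 and 6.09 at day 0 and 6.19, 6.57 and 6.49 at day 4. The knockout values were 5.92, 6.17 and 6.19, then 6.79, 6.46 and 6.62, and the mosaic values 6.17, 6.23 and 5.92, then 6.48, 6.52 and 6.34. The days were apart in knockout and mosaic cultures, and overlapped in wild type through 1 low day 4 array, replicate 1. By limma Ern1 rose by 0.53 ± 0.12 (SE) in knockout (adjusted p = 0.00284) and by 0.34 in mosaic cultures (adjusted p = 0.0455), and its 0.25 in wild type did not pass (adjusted p = 0.111). The mosaic call was lost with no filter (adjusted p = 0.0571), with the arrays of the mosaic alone (0.0756) and when any of 10 single arrays was left out. In wild type the gene passed after quantile normalization (0.34, adjusted p = 0.0293) and without the low array (0.37, adjusted p = 0.0355).

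Eif2ak3, the kinase PERK, was called in wild type alone. Its wild type values were 7.34, 7.57 and 7.29, then 7.01, 7.13 and 7.17. Knockout cells gave 7.37, 7.41 and 7.23, then 7.08, 7.17 and 7.07, and mosaic cultures 7.45, 7.28 and 7.25, then 7.36, 7.27 and 7.33. The days were apart in wild type and knockout and overlapped in mosaic cultures. By limma the log2 fold changes were -0.30 ± 0.09 (SE; adjusted p = 0.0175), -0.23 (adjusted p = 0.0631) and -0.01 (adjusted p = 0.974). The wild type call was lost after quantile normalization (adjusted p = 0.0987), with the wild type arrays alone (0.0592), without replicate 2 of wild type day 0 (0.101) and without replicate 1 of wild type day 4 (0.0775).

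**Figure D2:**
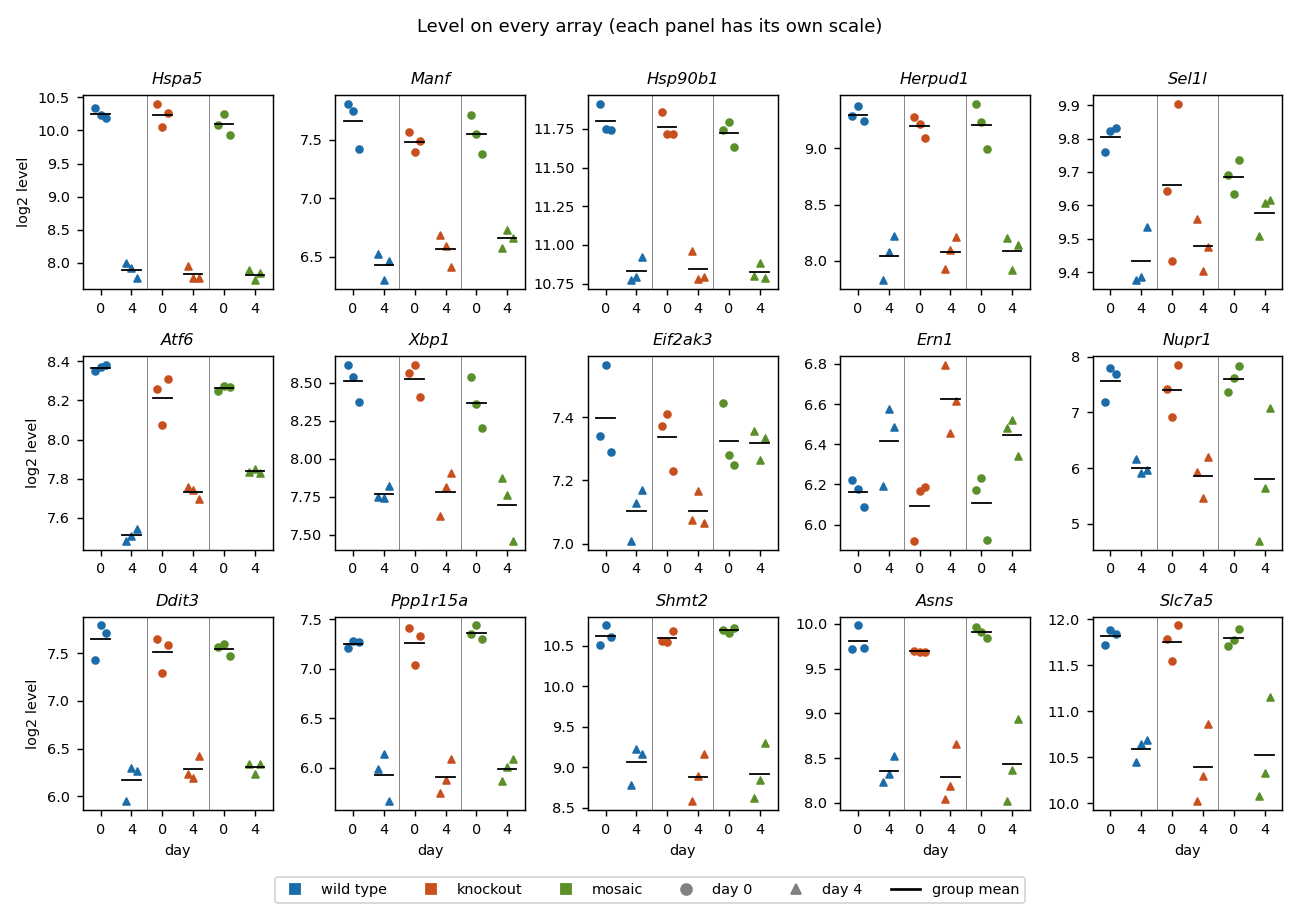
Log2 level on every array of the genes described array by array, with day (0 or 4) within each genotype on the horizontal axis, circles for day 0, triangles for day 4, and a bar at the mean of 3 arrays. Each panel has its own scale, and the day 4 arrays lie below the day 0 arrays in every genotype in all panels except those of Sel1l, Eif2ak3 and Ern1.

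Of the 9 regulators of the stress response, 8 fell in wild type, 8 in knockout cells and 6 in the mosaic, with medians of -0.65, -1.03 and -0.59. Nupr1, a small stress-induced chromatin protein, read 7.19, 7.79 and 7.68 in wild type at day 0 and 6.17, 5.90 and 5.96 at day 4. Knockout cells had 7.43, 6.92 and 7.85, then 5.93, 5.46 and 6.19. Mosaic cultures had 7.36, 7.61 and 7.83, then 4.70, 5.65 and 7.08. The days did not overlap, but the mosaic day 4 arrays ran over more than 2 log2 units, the third of them close to the day 0 arrays. The limma log2 fold changes were -1.55 ± 0.41 (SE; adjusted p = 0.00758), -1.54 (adjusted p = 0.00869) and -1.79 (adjusted p = 0.00307), and the last was -2.43 without that array and -1.24 without the first, the lowest.

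Ddit3 encodes CHOP, the transcription factor that links prolonged stress to cell death. It read 7.43, 7.79 and 7.72, then 5.95, 6.30 and 6.26 in wild type. In knockout cells the values were 7.65, 7.30 and 7.59, then 6.23, 6.20 and 6.42, and in mosaic cultures 7.56, 7.59 and 7.47, then 6.34, 6.23 and 6.34. All day 4 arrays were well below all day 0 arrays. The falls were 2.78-fold (log2 fold change -1.48 ± 0.12 SE, limma adjusted p = 1.46e-07), 2.34-fold (-1.23, adjusted p = 9.64e-07) and 2.36-fold (-1.24, adjusted p = 9.12e-07).

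Ppp1r15a encodes GADD34, which brings a phosphatase to eIF2alpha and so ends the slowing of translation. Wild type arrays read 7.21, 7.28 and 7.27, then 5.98, 6.14 and 5.66. Those of knockout cells read 7.41, 7.04 and 7.33, then 5.75, 5.87 and 6.08, and those of mosaic cultures 7.35, 7.44 and 7.30, then 5.87, 6.0 and 6.09. Again no array of one day reached those of the other. The log2 fold changes were -1.33 ± 0.12 (SE), -1.36 and -1.38, with limma adjusted p-values of 7e-07, 4.8e-07 and 4.74e-07.

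The messenger of Atf4, whose control is mainly translational, changed little, with -0.26 in wild type, -0.31 in knockout, which alone passed, and -0.18 in mosaic cultures. The knockout call was lost in several settings. Atf5, a related factor, fell by 0.90, 1.18 and 1.06, and Trib3, a pseudokinase induced by ATF4 and CHOP, by 0.65, 1.03 and 0.58. Sesn2, a leucine-binding inhibitor of mTORC1, fell by 0.50, 0.64 and 0.59. Chac1, which degrades glutathione and carries the CARE shown above, had -0.61, -0.64 and -0.47, the last not passing, and Cebpb, a partner of ATF4, -0.39, -0.34 and -0.38, of which only the wild type value passed.

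Of the 9 genes of amino acid supply, 7 fell in wild type, 7 in knockout cells and 8 in the mosaic, and their medians of -1.10, -1.07 and -1.08 were close to one another. Shmt2, the mitochondrial enzyme that takes a one-carbon unit from serine, read 10.50, 10.75 and 10.61, then 8.79, 9.23 and 9.17 in wild type. Knockout cells gave 10.56, 10.54 and 10.69, then 8.58, 8.90 and 9.17, and mosaic cultures 10.69, 10.65 and 10.72, then 8.62, 8.85 and 9.29. The day 0 arrays were tight and the day 4 arrays spread, with no overlap. The falls were 2.95-fold (log2 fold change -1.56 ± 0.16 SE, limma adjusted p = 2.12e-06), 3.28-fold (-1.72, adjusted p = 7.37e-07) and 3.40-fold (-1.77, adjusted p = 5.71e-07).

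Asns, asparagine synthetase, read 9.71, 9.98 and 9.73 in wild type neurospheres and 8.23, 8.32 and 8.52 at day 4. The knockout arrays gave 9.70, 9.68 and 9.69, then 8.04, 8.18 and 8.66, and the mosaic arrays 9.97, 9.90 and 9.84, then 8.01, 8.36 and 8.94. The third array was the highest of each day 4 group, and still below every day 0 array. By limma Asns fell by 1.45 ± 0.18 (SE) in wild type (adjusted p = 1.48e-05), 1.40 in knockout (adjusted p = 2.22e-05) and 1.47 in mosaic cultures (adjusted p = 1.33e-05).

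Slc7a5 encodes LAT1, the importer of large neutral amino acids, whose heavy chain is Slc3a2. Its values were 11.72, 11.88 and 11.83, then 10.45, 10.64 and 10.69 in wild type. Knockout cells had 11.78, 11.54 and 11.93, then 10.02, 10.30 and 10.86, and mosaic cultures 11.71, 11.78 and 11.90, then 10.07, 10.33 and 11.15. The third array was again the highest of each day 4 group, without reaching day 0. The log2 fold changes were -1.22 ± 0.22 (SE), -1.36 and -1.28, with limma adjusted p-values of 0.000532, 0.000212 and 0.000364.

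Slc3a2 fell by 1.12, 1.07 and 1.08, and Mthfd2, the mitochondrial folate enzyme that follows Shmt2, by 1.09, 1.07 and 1.19. Sars, which charges the serine tRNA, fell by 1.0, 0.83 and 0.85. In the serine synthesis pathway Psat1 fell by 0.69, 0.53 and 0.43, while Phgdh, its first enzyme, had -0.22, -0.14 and -0.38, with a call in the mosaic alone. Slc7a11, the cystine importer, whose promoter holds the pair of CAREs shown above, passed in no genotype (-0.11, 0.09 and 0.27). Its arrays overlapped between days, at 7.39 to 8.02 and 7.09 to 7.97 in wild type, and its mosaic day 4 arrays read 6.95, 7.75 and 8.97. A dimmer probe set of Slc7a11 gave -0.26, 0.50 and 0.38.

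**Figure D3:**
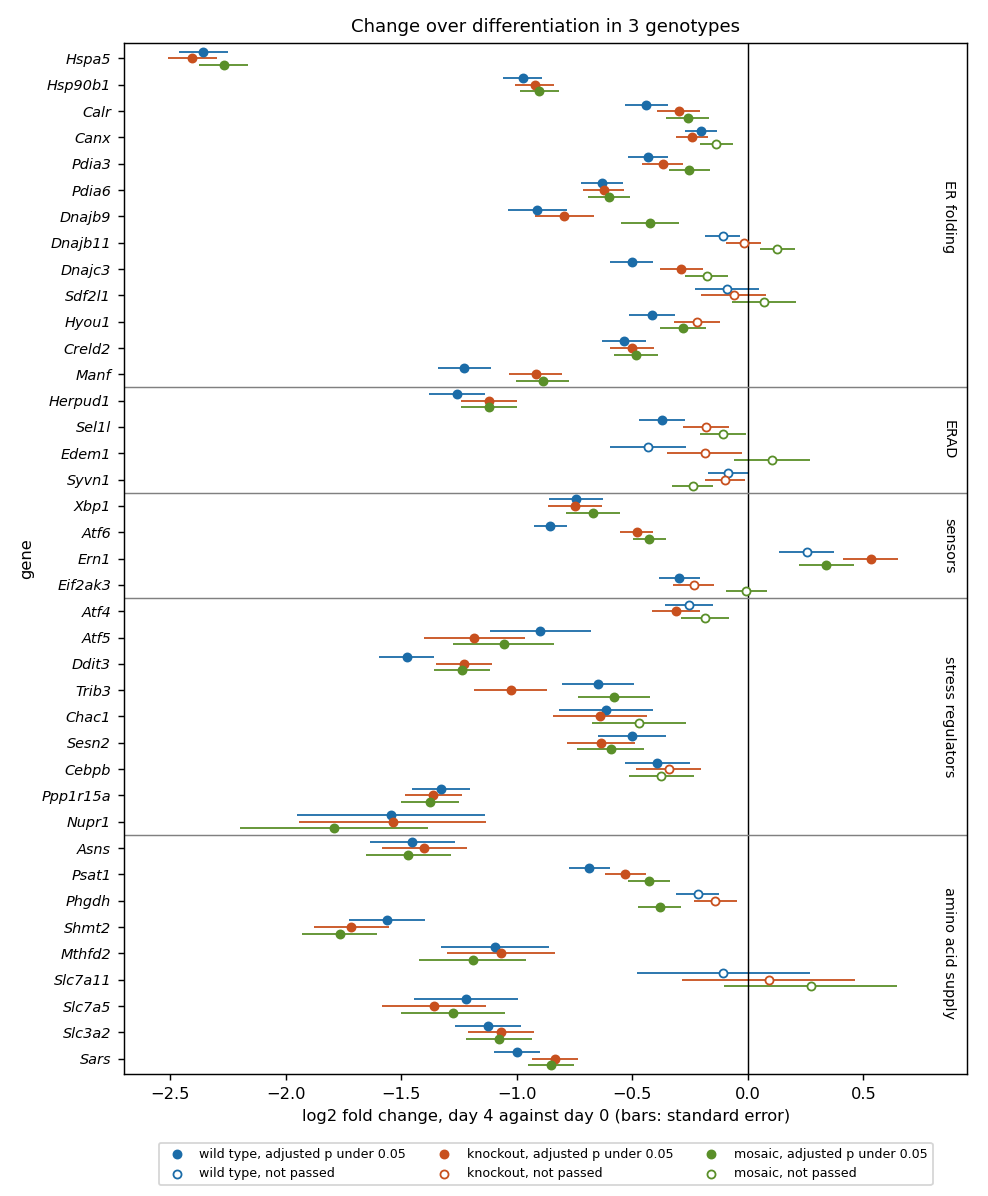
Log2 fold change of each of the 39 genes at day 4 against day 0 in wild type, knockout and mosaic cultures (colours), with the standard error as a bar, 3 arrays a group, filled points for an adjusted p under 0.05 and open points otherwise. Nearly all points lie left of 0, Hspa5 lies farthest left near -2.36, and Ern1 has filled points to the right.

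The plot of fold changes also shows how the genes of a role differed. The 13 folding genes spanned log2 fold changes from -2.36 to -0.09 in wild type, with Hspa5 far from the rest. Of the 8 members with an ERSE in the window 7 fell in wild type, with a median of -0.52, against 20 of 27 members without one, whose median was -0.65. In knockout cells the counts were 7 of 8 and 18 of 27, and in mosaic cultures 5 of 8 and 17 of 27. Beyond the members, 16 genes with an ERSE were tested, of which 6 fell and 1 rose in wild type, with a median of -0.15, beside 16.3% lower over all genes. Of the 4 members with a CARE, 3 fell in wild type, 3 in knockout cells and 2 in the mosaic (75%, 75% and 50%). Of the 31 tested members whose window held no exact match, 24, 22 and 20 fell (77.4%, 71% and 64.5%). Beyond the members, 24, 19 and 20 of 115 tested genes with a CARE fell (20.9%, 16.5% and 17.4%). Over all genes 16.3%, 12.4% and 11.9% were lower.

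Other genes of the same pathways, were taken from lists drawn up with the earlier results known. Of 129 such genes tested, 63 were lower and 8 higher in wild type, 49 and 10 in knockout, and 54 and 12 in mosaic cultures, with medians of -0.26, -0.18 and -0.19. The shares over all genes, to be set beside each count here, were 16.3%, 12.4% and 11.9% lower and 17.2%, 15% and 14.4% higher. Among 18 other genes of amino acid supply, 12 fell in each genotype, with Slc7a3, an importer of cationic amino acids, at -3.60 in wild type, Aldh1l2, a mitochondrial folate enzyme, at -2.14, and Mthfd1l and Slc7a1 at -1.77 and -1.37. Mthfd1, the cytosolic folate enzyme, rose by 0.87 there. Of 17 tRNA synthetase genes, 12, 8 and 11 fell, led by Lars at -1.10 and Nars at -0.81. Of 17 other targets of ATF4 and CHOP, 11, 10 and 11 fell, with Vegfa at -2.04, Atf3 at -1.93 and Klf4 at -1.91 in wild type, while Hmox1 rose by 0.65. On the ER side, 12, 10 and 10 of 23 other folding genes fell, with the oxidase Ero1a at -1.69 and Rcn1 at -0.80. Of 18 other degradation genes 3, 4 and 2 fell, not far from the shares over all genes, Derl3 at -0.61 in wild type among them. Of 20 genes of translocation and signal peptide removal 10, 4 and 5 fell, with Ssr4 at -0.52. The other sensors and kinases, 16 in number, were mixed, with 3, 1 and 3 lower and 2, 2 and 3 higher, again not far from those shares. Of these, Atf6b and Creb3l2 rose by 0.37 and 0.51 in wild type.

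The spread between the arrays of a group differed between the arms, most in knockout cells and the mosaic at day 4. At day 4 the median range over 3 arrays was 0.56 in knockout cells and 0.51 in the mosaic for the 18 regulators and amino acid genes. It was 0.16 and 0.17 for the 21 genes of ER folding, degradation and sensing, and 0.26 and 0.28 over all genes. In wild type at day 4 the ranges were 0.25, 0.23 and 0.25. At day 0, in the same order, they were 0.26, 0.16 and 0.22 in wild type and 0.34, 0.19 and 0.24 in knockout cells. The mosaic had 0.18, 0.20 and 0.23 at day 0. The mean log2 level of the 9 amino acid genes at day 4 was 8.73, 8.95 and 8.96 on the wild type arrays. It was 8.69, 8.80 and 9.11 on the knockout arrays and 8.55, 8.83 and 9.34 on the mosaic arrays. The 9 regulators had 6.71, 6.74 and 6.77, then 6.44, 6.56 and 6.83, then 6.48, 6.65 and 7.07. The 13 folding genes stayed between 8.72 and 8.87 on all 9 day 4 arrays.

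The third array was thus the highest of its group for both sets of means in each genotype. For Trib3, Sesn2, Asns, Mthfd2, Slc7a5 and Slc3a2, 6 of the 18 genes (33.3%), it was the highest at day 4 in all 3 genotypes, against 2.89% of all genes and 1 of the 21 ER genes. At day 0 the third array was the highest in all 3 genotypes for Atf5, Trib3, Sesn2 and Cebpb, 4 of the 18 genes (22.2%). There the share was 5.16% of all genes, with 2 of the 21 ER genes. The summed level of the 5 cell cycle genes on the day 4 arrays was 446, 505 and 548 in wild type, 338, 445 and 548 in knockout and 382, 655 and 872 in mosaic cultures, also highest on the third array. That of the oligodendrocyte markers was 7100, 6040 and 4640, then 4680, 4540 and 6380, then 7160, 6500 and 7120. The part of either in the spread of the amino acid genes was not tested, and replicate numbers have no order. Without the third mosaic day 4 array, 23 members were lower in mosaic cultures, with the calls of Calr, Pdia3, Dnajb9 and Hyou1 lost and that of Chac1 gained. Without the first, Calr, Pdia3, Dnajb9, Hyou1 and Ern1 were lost and Syvn1 was gained.

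**Figure D4:**
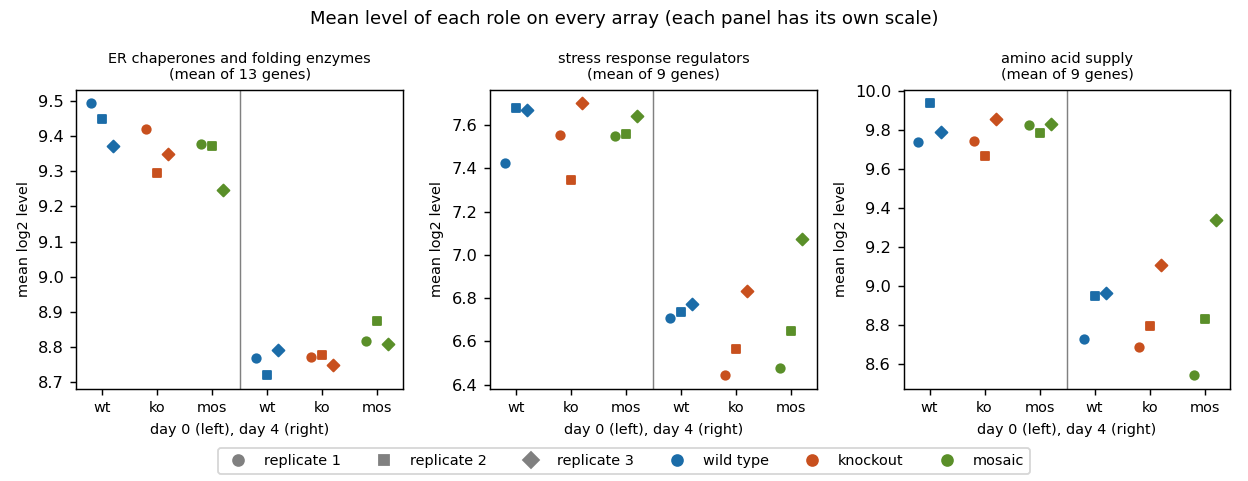
Mean log2 level of the ER folding genes, the stress regulators and the amino acid supply genes on every array, with genotype on the horizontal axis (wt, ko and mos), day 0 on the left and day 4 on the right of each panel, and the marker shape for the replicate number. Each panel has its own scale, the days are apart in all 3, and the day 4 amino acid means of the mosaic arrays run from 8.55 to 9.34.

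The genotypes were compared at each day, to ask whether the loss or the mixing of Pcdh19 moved these genes. In the 6 comparisons of genotypes within a day, and in the 3 tests of whether the change over differentiation differed, limma called 0 of the 39 members and 0% of all genes. A gene that missed the threshold is not shown to be alike, so intervals are given. The knockout and wild type comparisons share their arrays with the mosaic ones, so that they are not independent of one another. At an unadjusted p under 0.05, 1 member was found for knockout against wild type at day 0 and 2 at day 4, against 3.61% and 12.7% of all genes. For mosaic against wild type the counts were 0 and 5, against 4.3% and 15.9%, and for mosaic against knockout 0 and 4, against 4.24% and 6.07%. For the difference in differentiation they were 1 for knockout against wild type, 6 for mosaic against wild type and 0 for mosaic against knockout, against 9.51%, 12.4% and 4.29%. The members' highest share was 15.4%, beside the 12.4% of all genes. At day 0, 32 of the 39 log2 differences of knockout from wild type lay below 0, with a median of -0.07, and 30 of those of mosaic from wild type, with a median of -0.07, beside medians of 0.001 and 0.004 over all genes. At day 4 the counts below 0 were 16 and 14 of 39, with medians of 0.02 and 0.06, beside 0.008 and 0.007 over all genes. These medians over all genes were all above 0, so that fewer of all genes lay below it than above. Both comparisons of a day use the same wild type arrays, and genes read on the same arrays are not independent, so the counts below 0 are not a test.

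Atf6 had the lowest p of the members against wild type at day 4 and in both differences from wild type. Its level at day 4 was above wild type by 0.33 ± 0.07 (SE) in mosaic cultures (limma adjusted p = 0.129) and by 0.22 in knockout (adjusted p = 0.258). At day 0 its mean lay below the 8.37 of wild type, at 8.21 in knockout and 8.26 in mosaic cultures, which also enters the differences in its fall. Its fall over differentiation was smaller than in wild type by 0.37 in knockout (95% interval 0.16 to 0.59, limma adjusted p = 0.303) and by 0.43 in mosaic cultures (0.22 to 0.64, adjusted p = 0.256). Dnajb9 differed from wild type in the same way by 0.49 in mosaic cultures (0.11 to 0.87, adjusted p = 0.32) and by 0.12 in knockout (-0.26 to 0.50). Edem1 differed by 0.54 in mosaic cultures (0.05 to 1.03), Dnajc3 by 0.32 (0.05 to 0.60), Eif2ak3 by 0.29 (0.02 to 0.56) and Dnajb11 by 0.24 (0.01 to 0.46). Trib3 at day 4 read 5.68, 5.48 and 5.79 in wild type, 4.83, 5.32 and 5.39 in knockout and 5.57, 5.49 and 5.76 in mosaic cultures, and the knockout lay below wild type by a log2 difference of -0.47 (limma adjusted p = 0.262). Phgdh at day 4 lay lower in mosaic cultures than in the knockout by a log2 difference of -0.28 (limma adjusted p = 0.762).

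For Hspa5 the change over differentiation differed from wild type by -0.05 in knockout (95% interval -0.37 to 0.27) and by 0.09 in mosaic cultures (-0.23 to 0.40), beside a fall of 2.36 in wild type. For Ddit3 the differences were 0.25 (-0.11 to 0.61) and 0.24 (-0.12 to 0.60), for Asns 0.05 (-0.50 to 0.60) and -0.02 (-0.57 to 0.53). Over all members the half-width of these intervals had a median of 0.35, was narrowest at 0.21 and widest at 1.21 for Nupr1. The intervals are unadjusted, and a call after adjustment over all genes needed a larger difference, as the intervals and adjusted p-values of Atf6 above show.

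**Figure D5:**
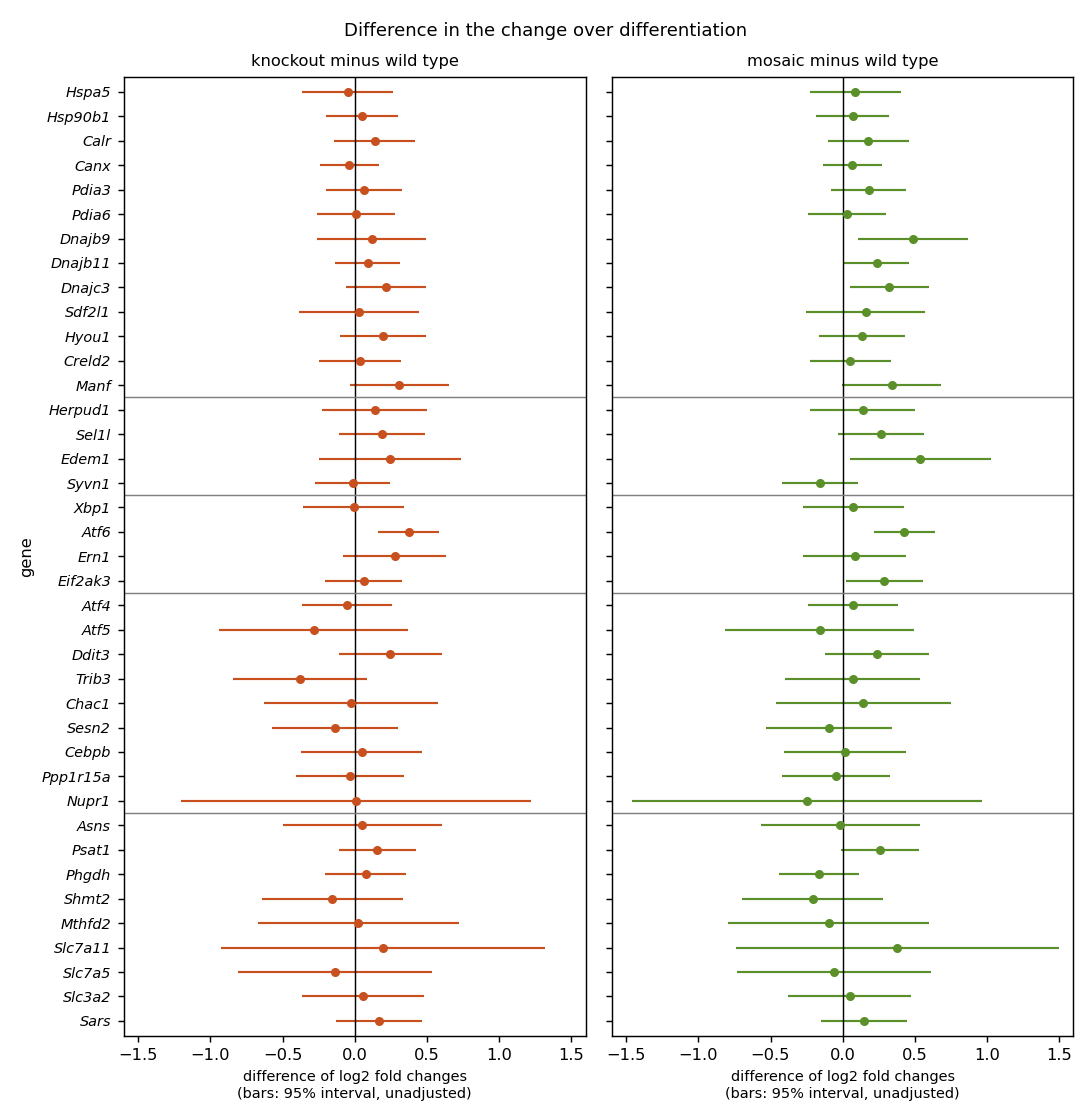
Difference between genotypes in the log2 fold change over differentiation for each of the 39 genes, knockout minus wild type on the left and mosaic minus wild type on the right, with the unadjusted 95% interval as a bar. Most intervals cross 0, and those of Atf6 lie above it on both sides, at 0.16 to 0.59 and 0.22 to 0.64.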

How the data were processed

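Total RNA was extracted with Trizol and silica columns, per the labels' protocols. The deposited values are normalized log2 expression levels per probe set, with a lowest of 0.722, a highest of 13.97, 41345 probe sets and array medians from 4.85 to 4.99. Base 2 is assumed. The sources used here give neither the normalization nor the background correction. No background level was at hand, and the number of arrays limits the precision.

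The platform annotation gave 23521 probe sets 1 symbol, 1814 several and 16010 none. Single-symbol probe sets were used, the one with the highest mean for each gene. All 39 members matched RefSeq by Entrez identifier. In R 4.3.3 with limma 3.58.1, 1 mean per group was fitted to all 18 arrays (12 residual and 4.36 prior degrees of freedom), with two-sided moderated tests. The median standard error was 0.126 for a pair of groups and 0.178 for a test of differing changes. The tests were tried on simulated data. Given array by array are, in each role, the 3 called members with the largest wild type change and any called against its role's direction; of the other lists, up to 4 called genes with the largest wild type change could be named. Members and lists were chosen with earlier results of these data known.

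Alternatives covered normalization, filter, probe set choice, a replicate block, the variance model, the arrays fitted, the threshold and leaving out each array.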

Additional observations from a re-analysis of the deposited data

How the results depend on the processing

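Counts of lower members stayed within 1.5 times of those reported under every alternative. Leaving out 1 array gave 26 to 33 in wild type (lowest without replicate 1 of wild type day 4), 23 to 29 in knockout (lowest without replicate 2 of knockout day 4) and 23 to 26 in mosaic cultures. Higher members in wild type numbered 0 to 1 when 1 array was left out and 1 after quantile normalization, the gene being Ern1. In mosaic cultures they numbered 0 to 1 when 1 array was left out. With no filter, the replicate block, the compared groups alone or an adjusted p under 0.01 the mosaic count was 0. The mosaic value of Eif2ak3, not called, turned to 0.0001 after quantile normalization and to 0.037 with a common array median, and ran from -0.044 to 0.054 when 1 array was left out. Calls lost in at least 1 setting were those of Canx, Eif2ak3, Chac1, Sesn2 and Cebpb in wild type, of Calr, Canx, Dnajc3, Atf4 and Chac1 in knockout, and of Calr, Pdia3, Dnajb9, Hyou1, Trib3 and Ern1 in mosaic cultures. The cause was not tested. Genotype comparisons called 0 members in all settings, although up to 262 other genes were called for mosaic against wild type at day 4 without replicate 1 of mosaic day 4. Replicate numbers were not treated as pairing the samples. Only 4 of 45 same-number pairs correlated above 0.1, with a highest r of 0.165, and pairs of different number reached 0.12, so that these values do not settle pairing. As a hint from the data and not the design, 10 of 18 arrays, not all, correlated best with their own number. With the replicate block the lower members numbered 32, 29 and 26 in the 3 genotypes.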

Other observations

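Pdia4, the member left out because its probe set also carries the microRNA Mir704, would have been read there at 8.24, 8.36 and 8.07 in wild type at day 0 and at 7.24, 7.33 and 7.27 at day 4. The shared probe set read 8.20, 8.16 and 8.29, then 7.13, 7.19 and 7.25 in knockout, and 8.18, 8.21 and 8.30, then 7.35, 7.31 and 7.20 in mosaic cultures. Every day 4 array lay below every day 0 array, and whether the signal is of Pdia4 was not tested.

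Outside the members, some genes with an ERSE in the window also fell in every genotype by limma. Alg12, which adds a mannose to the sugar chain put on ER proteins, fell by 1.06, 0.58 and 0.51 in wild type, knockout and mosaic cultures (adjusted p = 6.06e-07, 0.000267 and 0.000836). Hnrnpa3, which binds RNA, fell by 1.43, 0.95 and 0.57, Pan2, a subunit of a deadenylase, by 0.70, 0.68 and 0.61, and Derl3, of ER-associated degradation, by 0.61, 0.53 and 0.74. These genes were singled out after their values were seen.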
